A study of Mus musculus with 23 samples.

Results

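Thyroid hormone reached cultured mouse astrocytes here as 10 nM T3 (triiodothyronine, its active form), and the results describe the RNA of these cells 6 h later, with protein synthesis left running. The comparison used 8 of the 23 libraries of the series, taken by their titles: 4 of cells with T3 for 6 h and 4 of control cells without T3 at 6 h. Both groups were primary astrocytes from the neocortex of 3-day-old pups of a hybrid background (BALB/c+C57BL/6 with 129/OLa+129/Sv+), cultured for 7 days. All cells, controls included, spent 24 h in 0.1% serum stripped of thyroid hormones before the treatment, so the reference is a state short of hormone and not a normal hormone level. The submitters put the share of astrocytes above 95%. The labels leave unsaid whether the 4 replicates of a group are independent cultures, so the p-values rest on library-to-library spread that may be technical.

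T3 acts mainly through nuclear thyroid hormone receptors, which sit on DNA with or without the hormone and change their partners, and so transcription, when T3 binds. In the brain astrocytes take up thyroxine, convert it to T3 and pass it to neurons, and they also carry the receptors themselves. Known direct targets in many tissues are Hr, a corepressor, Klf9, a zinc finger transcription factor, and Dio3, the enzyme that inactivates T3. A gene may also move within hours because a direct target acts on it in turn.

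The 8 libraries held 13843040 to 20493855 gene counts each and, by their file names, shared lane 5. No 2 files were identical, and every pair of replicates was further apart than counting error, with a chi-square per degree of freedom of 2.64 to 16.7. The pairs furthest apart were T3 replicates 1 and 2 among the treated and replicates 3 and 4 among the controls. Summed cytosolic ribosomal protein genes differed in the same pairs, with 5758 CPM in T3 replicate 1 and 7604 CPM in T3 replicate 2, the lowest and highest of that group, and 6111 CPM in control replicate 3 and 8353 CPM in control replicate 4, the lowest and highest of the controls. Their part in the results was not tested, but without T3 replicate 2 the test described next called 466 genes higher and 210 lower, and without control replicate 4 it called 378 higher and 175 lower. Summed astrocyte markers (30 genes) ran from 30688 to 32332 CPM (counts relative to the TMM-scaled library size, the scale of all levels here) in the T3 libraries, against 27225 to 29574 CPM in the controls, and none of the 30 was at 0. Markers of other cells were lower, with sums of 244 to 267 CPM with T3 and 209 to 249 CPM in controls for 22 microglia genes. For 20 oligodendrocyte lineage genes the sums were 892 to 981 CPM with T3 and 916 to 1035 CPM in controls, and for 27 neuron genes 820 to 892 CPM with T3 and 755 to 809 CPM in controls. Vascular and meningeal markers (29 genes, with Slc22a6 and Slc6a13 at 0) summed to 2248 to 2518 CPM with T3 and 2539 to 2789 CPM in controls. Acta2 alone made up most of these sums, with means of 1625 CPM with T3 and 1855 CPM in controls, and its libraries overlapped between the groups. Of the 21 tested members 10 had a positive and 11 a negative log2 change, with a median of -0.02, and none was called. In such bulk RNA, fewer cells of a type and less RNA per cell cannot be told apart.

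T3 changed 606 of 16087 tested genes at 6 h, which is 3.77% (edgeR's quasi-likelihood test, Benjamini-Hochberg adjusted p under 0.05). Of these, 420 were higher with T3 (2.61% of all genes) and 186 were lower (1.16%), so 69.3% of the calls were in the upward direction. Nearly all were protein-coding, 589 of the 606. The response was made up mostly of moderate changes: 553 of the 606 genes (91.3%) moved by less than 2-fold, and the median called gene moved by 1.32-fold. By the size of the log2 change, 151 calls lay under 0.3, 246 between 0.3 and 0.5, 156 between 0.5 and 1, 45 between 1 and 2, and 8 at 2 or more.

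Raised and lowered genes differed in size. The median log2 change was 0.43 for raised genes and -0.34 for lowered ones, and 46 raised but only 7 lowered genes reached 2-fold. Those 7 were at low levels and carried little weight. The small RNA gene Gm22009 had the lowest log2 change of all (-2.90 ± 0.81, SE), yet it read 1.08, 0.813, 1.18 and 1.41 CPM with T3, against 1.05, 1.91, 1.11 and 30.9 CPM in controls, so control replicate 4 alone stood apart, and without it the log2 change was -0.27 and not called. Artn, Wnt2, Creb3l4 and Chrm4 were among the others, and the T3 and control libraries of Artn and Creb3l4 overlapped, with the calls lost in 6 of the 8 fits that left out 1 library. The 4 T3 libraries lay wholly above the 4 controls for 407 of the 420 raised genes and wholly below them for 170 of the 186 lowered genes. Over all tested genes such separation occurred in 6.71% upward and 4.81% downward. Genes named below for their size, p or level had to show it, so for them it adds no support. Data were simulated from the libraries of the series over 16087 genes, with changes set only in genes with a mean of at least 50 counts. Among those, the test recovered 24% of 50 genes changed by 1.2-fold, 88% of 50 changed by 1.5-fold and 100% at 2-fold and 3-fold. Changes near 1.2-fold are therefore undercounted, and recovery in genes with fewer counts was not tested.

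The balance of directions depended on the correction for gene length and GC content. With that trend removed from each library, 506 genes were called higher and 493 lower, so 50.7% of the calls were upward, and the 606 genes all kept their sign. Leaving out single libraries changed which genes were called: 341 of the 606 were called again in the same direction without T3 replicate 4, the fewest of the 8 such fits. Only 273 genes were called higher and 76 lower without T3 replicate 4, against 420 and 186 in the full fit. Lowered calls were also fewer without T3 replicate 3 (99), control replicate 2 (100) or control replicate 3 (116).

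**Figure D1:**
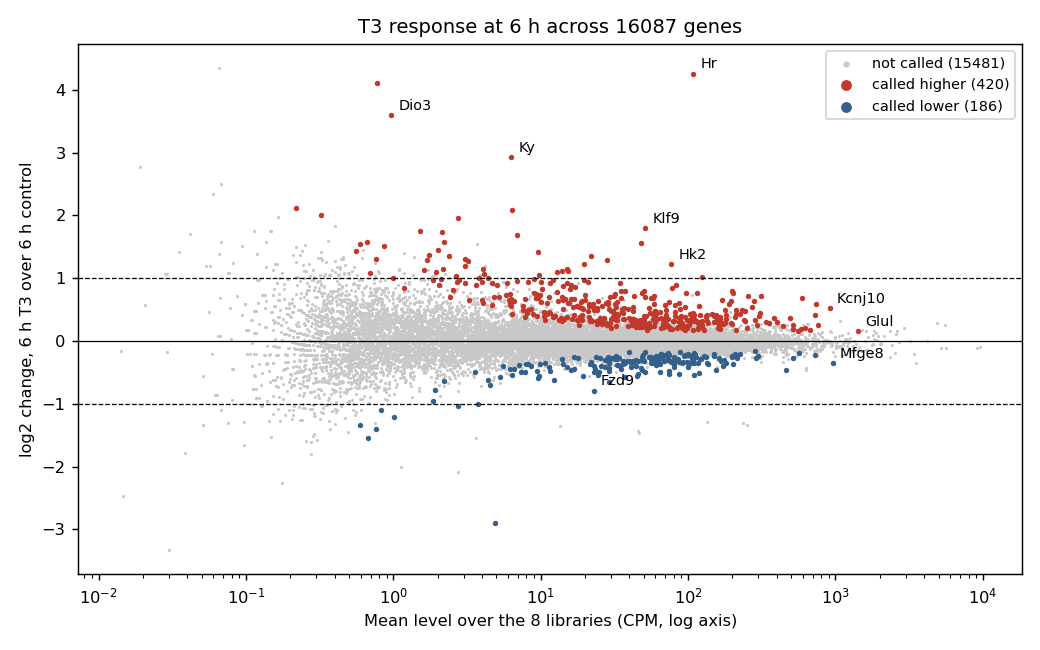
Log2 change of T3 over control at 6 h (y axis) against the mean level over the 8 libraries in CPM (x axis, log scale), with 1 point per gene, genes called higher in red, genes called lower in blue, and dashed lines at a 2-fold change. Most of the 606 called points lie inside the dashed lines, at levels of 10 CPM or more, and points past 2-fold are mainly raised genes.

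Responders were found at every level of expression, though the share called rose with the counts behind a gene. Among genes under 1 CPM, 10 were called higher and 4 lower of 2084. Between 1 and 10 CPM these counts were 75 and 25 of 3789, between 10 and 100 CPM 236 and 114 of 7555, and at 100 CPM or more 99 and 43 of 2659. The median standard error of the log2 change was 0.41 under 1 CPM and 0.064 at 100 CPM or more, so a small change could be called only in well-counted genes. Per length the raised genes had a median of 7.89 CPM per kb of exon and the lowered genes 12.6 CPM per kb, against 5.46 CPM per kb over all tested genes. Lowered genes were shorter, with a median exon length of 3910 bases, against 4861 bases for raised genes and 4132 bases for all. Over all tested genes the median log2 change also climbed with exon length, from -0.047 under 2000 bases to 0.039 at 8000 bases or more. The part of that trend in the length difference was not tested.

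Some of the largest gains in RNA were small in fold. The called genes with the highest levels on the raised side were Glul, Kcnj10, Atp1b2, Ezr, Atp1b1 and Pfkp, all at 656 CPM or more in every T3 library. Added up, the raised genes gained 9403 CPM and the sum of the lowered genes fell by 3170 CPM. By difference in CPM the leaders were Kcnj10, Atp1b2, Rhob, Ezr and Hr, of which only Hr passed 2-fold.

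The strongest genes were few and mostly lowly expressed. Hr stood at 226, 193, 204 and 197 CPM in the 4 T3 libraries, against 9.34, 10.0, 11.5 and 12.2 CPM in the controls. The 8 protein-coding genes of at least 1 CPM with the largest rise included Hr and Klf9. The others were Ky and Mylk2, known from muscle, and Chst8, a sulfotransferase of N-glycans. Rpe65, a retinoid isomerase, Prlr, the receptor of prolactin, and Syt12, a synaptotagmin, completed the 8. The log2 change was 4.26 for Hr and 1.69 to 2.92 for the rest. The 6 besides Hr and Klf9 were at 12.2 CPM or less in every library. Of 32 tested genes listed as thyroid hormone-responsive from knowledge that includes these data, 11 were higher and none lower. The library kit marks no strand, so reads cannot be told apart from those of an overlapping gene on the other strand for Syt12 and for some genes described next: Ezr, Glul, Atp1b1, Pfkp, Nrarp, Stat5a, Slc43a2, Slc25a33, Slc29a1, Plod2, Ndrg1, Elovl6, Acsl6, Srebf1, Bdnf, Fgfr3, Adora1, Gpc1, Pcdh8, Cldn19, Tjp3, Kcnab1, Kcnk3, Olig1, Hes5, Mest, Cand2, Zfp36l1, Wnt7b, Fzd5, Cdc25b, Kif4, Plk1, Dlx1, Eif5b, Slc1a2 and Aldh1l1.

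Potassium and sodium handling included abundant responders. Astrocytes clear the potassium and glutamate that active neurons release, and Kcnj10 encodes Kir4.1, the main potassium channel for that task. Kcnj10 (ENSMUSG00000044708, GRCm38 chromosome 1, 172341210 to 172374085) measured 1195, 941, 1090 and 1077 CPM with T3, against 745, 777, 814 and 657 CPM in controls. Every T3 library exceeded every control, and the log2 change was 0.52 ± 0.08 (SE, adjusted p = 0.00018, n = 4 libraries per group, edgeR). Atp1b2, a beta subunit of the sodium pump enriched in astrocytes (ENSMUSG00000041329, chromosome 11, 69599736 to 69605942), read 984, 812, 882 and 881 CPM with T3 and 569, 571, 617 and 611 CPM in controls. Its groups did not overlap either, and it rose by 0.59 ± 0.07 log2 (SE, adjusted p = 2e-06, edgeR). The other beta subunit called, Atp1b1, rose less, by 0.25 ± 0.05 log2.

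Other potassium channel genes moved both ways. Of 62 tested members of a potassium channel list, 4 were higher and 3 lower, with a median log2 change of -0.02 over the list and 0.00 over all genes. Besides Kcnj10 these were Kcns1 (0.92 ± 0.10 log2), a silent modifier subunit, Kcnc1 (0.57 ± 0.12), which encodes the fast voltage-gated channel Kv3.1, and Kcna1 (1.14 ± 0.27), whose T3 and control libraries overlapped. Kcnab1, Kcnk3 and Kcnk5 were lower by 0.49 to 0.50 log2, and the libraries of Kcnk3 overlapped between the groups. In fits that left out 1 of the 8 libraries at a time, the calls of Kcnk3 and Kcnk5 were lost in 5, that of Kcna1 in 3 and that of Kcnab1 without T3 replicate 3. None of the list was called lower without T3 replicate 3, and 1 was without T3 replicate 4, control replicate 2 or control replicate 3.

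Of 42 tested genes of glutamate and GABA handling 3 were higher and none lower, with a median log2 change of 0.03. Slc38a3, which had the smallest p of them, encodes SNAT3, the transporter through which astrocytes release glutamine. Slc38a3 (ENSMUSG00000010064, chromosome 9, 107650634 to 107669530) stood at 401, 396, 395 and 369 CPM with T3, against 225, 244, 245 and 235 CPM in controls. The spread within each group was a small part of the gap, and the log2 change was 0.72 ± 0.05 (SE, adjusted p = 1.7e-10, edgeR). Glul, glutamine synthetase and the most abundant called gene, read 1478, 1468, 1551 and 1463 CPM with T3 and 1347, 1339, 1283 and 1364 CPM in controls. That is a change of only 0.16 ± 0.04 log2 (SE, adjusted p = 0.029, edgeR), and the call was lost in 6 of the 8 fits without 1 library. The glutamate transporter gene Slc1a3 did not pass the test (-0.04 ± 0.04 log2), nor did Slc1a2 (0.39 ± 0.12, adjusted p = 0.087, edgeR).

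Among all 274 tested solute carriers, 12 were higher and 3 lower, which is 4.38% and 1.09%, against 2.61% and 1.16% over all genes. Slc43a2, an exporter of large neutral amino acids, reached 61.6, 47.5, 51.1 and 52.6 CPM with T3, against 32.7, 33.1, 37.1 and 27.0 CPM in controls (0.71 ± 0.09 log2). Slc25a33, a mitochondrial carrier of pyrimidine nucleotides, rose by 0.62 ± 0.09 log2 and Slc35g1 by 0.98 ± 0.12 log2. Slc29a1, the equilibrative nucleoside transporter, was lower by 0.45 ± 0.08 log2. The list's lowered genes came to 1 without T3 replicate 2, 3 or 4 or control replicate 2 or 4.

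Some glycolysis genes rose, without a shift of the whole group. Of 42 tested glycolysis and lactate genes 7 were higher (16.7%) and 1 lower, with a median log2 change of 0.05 over the list. Hk2, a hexokinase that commits glucose to the pathway (ENSMUSG00000000628, chromosome 6, 82725025 to 82774454), measured 114, 94.2, 102 and 122 CPM with T3 and 49.2, 43.8, 42.2 and 49.5 CPM in controls. The groups were far apart, and Hk2 rose by 1.23 ± 0.08 log2 (SE, adjusted p = 3.9e-10, edgeR). Pfkfb3, whose product makes the activator of phosphofructokinase, was at 335, 278, 315 and 341 CPM with T3, against 188, 184, 197 and 204 CPM in controls. T3 replicate 2 was the lowest of the treated libraries for both genes and still above every control, and Pfkfb3 rose by 0.71 ± 0.06 log2 (SE, adjusted p = 1.6e-08, edgeR).

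The other raised members were Pfkfb4, the phosphofructokinase genes Pfkl and Pfkp, the glycogen branching gene Gbe1 and the lactate exporter gene Slc16a3, by 0.21 to 0.76 log2. Pygb, a glycogen phosphorylase gene, was lower, at 669, 685, 680 and 631 CPM with T3 and 760, 802, 802 and 738 CPM in controls. The calls of Pfkl and Slc16a3 were lost in 7 of the 8 fits without 1 library, that of Pfkfb4 in 3, and that of Pfkp without control replicate 2. Over these fits 4 to 6 genes of the list were called higher, with 4 without control replicate 2 or control replicate 4.

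Several of these genes are also induced by low oxygen, through the factor HIF-1. On a list of hypoxia-inducible genes put together after the values had been seen, 15 of 52 tested members were higher and 1 lower. This list is a description of the response and no independent support, and 7 of its raised members are the glycolysis genes above. Vegfa, the angiogenic growth factor (ENSMUSG00000023951, chromosome 17, 46016993 to 46032369), stood at 140, 113, 141 and 186 CPM with T3, against 84.7, 86.4, 92.7 and 78.5 CPM in controls. T3 replicate 4 was the highest library, and the log2 change was 0.76 ± 0.09 (SE, adjusted p = 9.9e-06, edgeR). The collagen-modifying genes Plod2 (0.54 ± 0.07 log2) and P4ha1 (0.38 ± 0.06), the secreted stanniocalcin gene Stc2 (0.89 ± 0.12) and the endoplasmic reticulum oxidase gene Ero1l (0.36 ± 0.09) were higher. Ndrg1, a classical hypoxia-induced gene, was lower by 0.24 ± 0.06 log2. The calls of Ndrg1 and Ero1l were lost in 5 and 3 of the 8 fits without 1 library.

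Lipid synthesis showed a handful of raised enzymes without a general shift. Of 35 tested genes of fatty acid synthesis and desaturation, 6 were higher (17.1%) and 1 was lower, and the list's median was 0.06 log2. Lpin3, a phosphatidate phosphatase (ENSMUSG00000027412, chromosome 2, 160880670 to 160906002), read 19.3, 20.5, 19.6 and 23.9 CPM with T3 and 8.85, 7.40, 9.66 and 11.8 CPM in controls. The groups stood apart, and Lpin3 rose by 1.15 ± 0.12 log2 (SE, adjusted p = 9.4e-07, edgeR). Elovl5, an elongase of polyunsaturated fatty acids, was at 325, 306, 316 and 326 CPM with T3, against 257, 251, 233 and 272 CPM in controls, a log2 change of 0.33 ± 0.05 (SE, adjusted p = 4.4e-05, edgeR).

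The remaining raised enzymes were Elovl6, the glycerolipid acyltransferase gene Gpam and the acyl-CoA synthetase genes Acsl3 and Acsl6 (0.20 to 0.42 log2), and the desaturase family gene Fads3 was lower (-0.27 ± 0.07). Of 40 cholesterol genes Sc5d was higher by 0.28 ± 0.07 log2 and the regulator Srebf1 lower by 0.20 ± 0.05 log2. That is 2.5% each way, against 2.61% higher and 1.16% lower over all genes. None of 41 tested genes of fatty acid oxidation and lipid droplets was called, against 3.77% over all genes. With 1 library left out, 3 (without T3 replicate 4 or control replicate 2) to 7 fatty acid synthesis genes were called higher, and the call of Fads3 was lost in all 8 fits, of Gpam in 7, of Srebf1 in 5, of Acsl3 and Sc5d in 4 and of Elovl6 in 3.

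**Figure D2:**
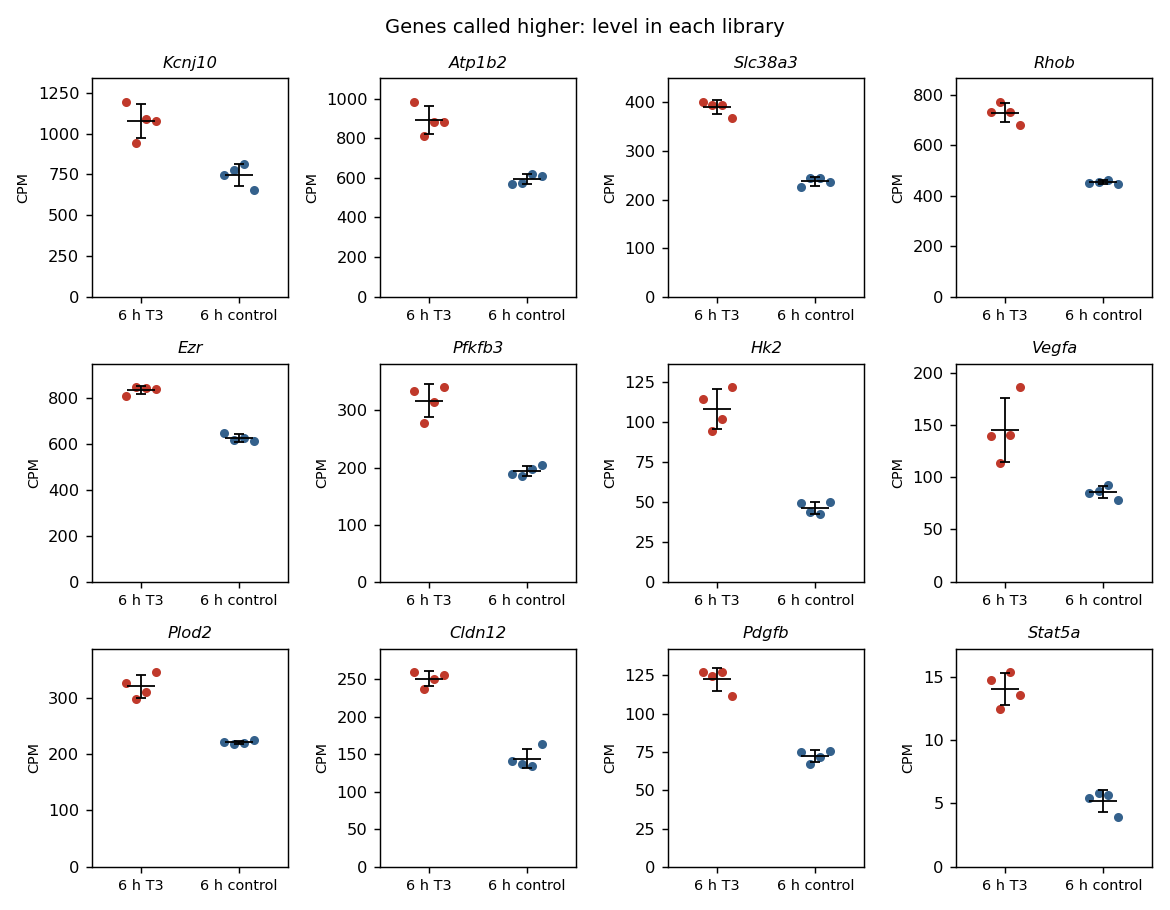
Level in CPM (y axis from 0) of 12 genes called higher, in the 4 libraries with T3 (red, left) and the 4 controls (blue, right), with bars for the mean and SD. In all 12 panels every T3 library lies above every control, from 12.5 CPM for Stat5a to 1195 CPM for Kcnj10. Lack of overlap was a condition for naming part of these genes, so it adds no support.

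Regulators of hormone and cytokine signalling were raised as well. Stat5a, a transcription factor activated by prolactin and growth hormone (ENSMUSG00000004043, chromosome 11, 100859351 to 100885169), measured 14.7, 12.5, 15.4 and 13.6 CPM with T3, against 5.44, 5.85, 5.64 and 3.94 CPM in controls. The change was 1.41 ± 0.10 log2 (SE, adjusted p = 1.4e-09, edgeR), with Stat3 overlapping on the other strand (-0.01 ± 0.06 log2 for Stat3 itself). On the JAK-STAT list, 4 of 38 tested genes were higher, Stat5a, Prlr, Stat5b (0.31 ± 0.07 log2) and the shared cytokine receptor gene Il6st (0.37 ± 0.08), and 1 was lower.

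Of 30 tested nuclear receptor genes, Nr3c1 and the estrogen-related receptor gene Esrrg were called higher and none lower. Nr3c1, the glucocorticoid receptor, stood at 205, 185, 209 and 212 CPM with T3 and 160, 160, 161 and 158 CPM in controls (0.35 ± 0.07 log2, SE). The thyroid hormone receptor gene Thrb rose by 0.51 ± 0.12 log2, with the call lost without T3 replicate 1. Among 24 tested corepressors and coactivators of nuclear receptors, the corepressor gene Nrip1 (0.53 ± 0.11 log2) and the coactivator gene Ppargc1a (0.42 ± 0.11), were higher and none was lower. The calls of Ppargc1a and Esrrg were lost in 6 and 4 of the 8 fits without 1 library.

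Signals that astrocytes send and receive changed in both directions. Among 59 tested growth factors and their receptors, 5 were higher and 1 lower. Pdgfb, a ligand for cells of the vessel wall and for glial progenitors, was at 127, 124, 127 and 111 CPM with T3 and at 74.9, 67.1, 71.8 and 75.8 CPM in controls (0.76 ± 0.08 log2, SE). The others raised were Vegfa, the neurotrophin gene Bdnf (0.60 ± 0.10 log2), the hepatocyte growth factor receptor gene Met (0.49 ± 0.09) and Vegfc (0.43 ± 0.11, lost in 5 of the 8 fits without 1 library). The receptor gene Fgfr3, itself an astrocyte marker, read 201, 190, 192 and 192 CPM with T3, against 229, 237, 263 and 212 CPM in controls, and was lower by 0.28 ± 0.06 log2 (SE).

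On the list of G protein-coupled receptors of glia, 5 of 67 tested were higher and 3 lower. Raised examples were Ptger3, a prostaglandin E2 receptor (1.35 ± 0.24 log2), the estrogen-binding receptor gene Gper1 (0.76 ± 0.12), the alpha-2A adrenergic receptor gene Adra2a (0.66 ± 0.11) and Gpr146 (0.38 ± 0.05). Lowered were the muscarinic receptor gene Chrm4 (-1.03 ± 0.19), the adenosine A1 receptor gene Adora1 (-0.27 ± 0.07) and the PACAP receptor gene Adcyap1r1 (-0.36 ± 0.10). The libraries of Adcyap1r1 overlapped between the groups, and both Adora1 and Adcyap1r1 lost the call in 5 of the 8 fits without 1 library. The list's lowered genes came to 1 without control replicate 2 or 3. Of the other genes in the moderate range with the smallest p, F3 encodes tissue factor, Tmeff1 a transmembrane follistatin-like protein, Morc4 a MORC ATPase, Kazn a junction-associated protein, Apobec1 an RNA-editing cytidine deaminase and Trp53inp2 an autophagy factor, and they rose by 0.59 to 0.84 log2. Of 39 tested apoptosis regulators, Bmf (0.79 ± 0.09 log2) and Bcl2l11 (0.43 ± 0.08), which promote cell death, were higher, and Hrk, which does so too, was lower (-0.49 ± 0.14, lost in 7 of the 8 fits without 1 library).

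Genes of the cell surface and matrix gave single strong responders more than a shift of the group. Adamts5, which cleaves aggrecan and related proteoglycans (ENSMUSG00000022894, chromosome 16, 85856173 to 85901828), stood at 74.6, 63.1, 69.9 and 77.3 CPM with T3, against 20.5, 24.9, 27.4 and 23.6 CPM in controls. It rose by 1.56 ± 0.13 log2 (SE, adjusted p = 2.9e-08, edgeR). It was the single called gene among 68 tested matrix proteases and inhibitors (1.47% higher, against 2.61% over all genes). Cldn12, a claudin of tight junctions (ENSMUSG00000046798, chromosome 5, 5489537 to 5514958), measured 260, 237, 251 and 256 CPM with T3 and 141, 138, 135 and 164 CPM in controls (0.80 ± 0.06 log2, SE). Rhob, a small GTPase of the actin cytoskeleton, was at 733, 774, 731 and 682 CPM with T3, against 452, 455, 464 and 446 CPM in controls (0.68 ± 0.06 log2, SE). Of 63 tested genes of the actin cytoskeleton and its GTPases 6 were higher, Rhob, Ky and Mylk2 among them, and none was lower. The membrane to cytoskeleton linker gene Ezr, enriched in fine astrocyte processes, rose by 0.42 ± 0.04 log2.

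Of 73 tested adhesion genes 4 were higher and 3 lower, the lowered ones being Cldn2, Cldn19 and the junction scaffold gene Tjp3 (-0.28 to -0.62 log2). Among 34 tested protocadherins Pcdh1, Pcdh8, Pcdh20 and Pcdha11 were higher by 0.29 to 0.71 log2 and none was lower. Of 59 tested proteoglycan and glycosaminoglycan genes 5 were higher, with the chondroitin sulfotransferase gene Chst11 (0.36 ± 0.08 log2), the heparan sulfatase gene Sulf1 (0.33 ± 0.08) and the core protein gene Sdc4 (0.23 ± 0.06) among them, and 2 were lower, with Gpc1 at -0.25 ± 0.06. Fits without 1 of the 8 libraries lost the calls of Sdc4 in 5, Cldn2, Cldn19 and Pcdh20 in 4, Sulf1 in 3 and Pcdha11 in 2, and that of Gpc1 without T3 replicate 4. Without T3 replicate 1 the raised genes came to 2 of the protocadherins and 2 of the proteoglycan list, and without T3 replicate 4 or control replicate 2 to 3 of the proteoglycan list.

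Motile cilia genes leaned upward together. Of 67 tested members of the list, 66 had a positive log2 change, the list's median was 0.55, against 0.00 over all genes, and 11 were called higher (16.4%) and none lower. Ccdc40, needed to assemble the dynein arms (ENSMUSG00000039963, chromosome 11, 119228572 to 119265238), stood at 31.5, 31.9, 34.8 and 36.2 CPM with T3, against 20.7, 20.7, 23.5 and 23.7 CPM in controls. The radial spoke gene Rsph4a read 22.4, 17.5, 18.5 and 22.0 CPM with T3 and 10.4, 11.6, 12.5 and 10.8 CPM in controls. Neither gene's groups overlapped, and the log2 changes were 0.60 ± 0.12 for Ccdc40 and 0.83 ± 0.19 for Rsph4a (SE, adjusted p = 0.0041 and 0.0094, edgeR). Rsph1, Tekt1, Spag6l, Lrrc23 and the ciliary adenylate kinase gene Ak7 rose by 0.65 to 1.14 log2. In fits without 1 of the 8 libraries the calls were lost in 7 for Ak7, 5 for Lrrc23, 4 for Rsph1 and Spag6l, and for Tekt1 without control replicate 3.

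The regulators of the ciliated fate did not pass the test. Foxj1, the master factor of motile cilia, stood at 491, 550, 527 and 486 CPM with T3, against 437, 435, 489 and 352 CPM in controls (0.26 ± 0.10 log2, adjusted p = 0.14, edgeR), and Mcidas gave 0.94 ± 0.29 log2 (adjusted p = 0.067, edgeR). The list of 23 ependymal and choroid plexus markers, which shares Foxj1, Ak7, Pifo, Ccdc153 and Fam183b with the cilia list, moved with it. Its sum ran from 756 to 868 CPM with T3, against 672 to 705 CPM in controls, with none of its genes at 0. Foxj1, which did not pass, made up most of that sum in every library. The neuron markers Dlx1 (0.79 ± 0.16 log2), of interneuron precursors, and Elavl4 (0.63 ± 0.13) were also higher, and 15 of the 19 tested neuron markers were positive. The part of ependymal cells or neurons in the cilia result was not tested. The number of cilia genes called swung from 2 without control replicate 3 and 3 without T3 replicate 4 to 32 with only the 8 libraries in the fit, and it was 31 without 2 libraries that stood apart in other arms (24 h T3 replicate 1 and 6 h CHX replicate 4). It was 5 without T3 replicate 3 or control replicate 1 and 4 without control replicate 2. The list's median stayed between 0.48 and 0.63 log2 in all of them.

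**Figure D3:**
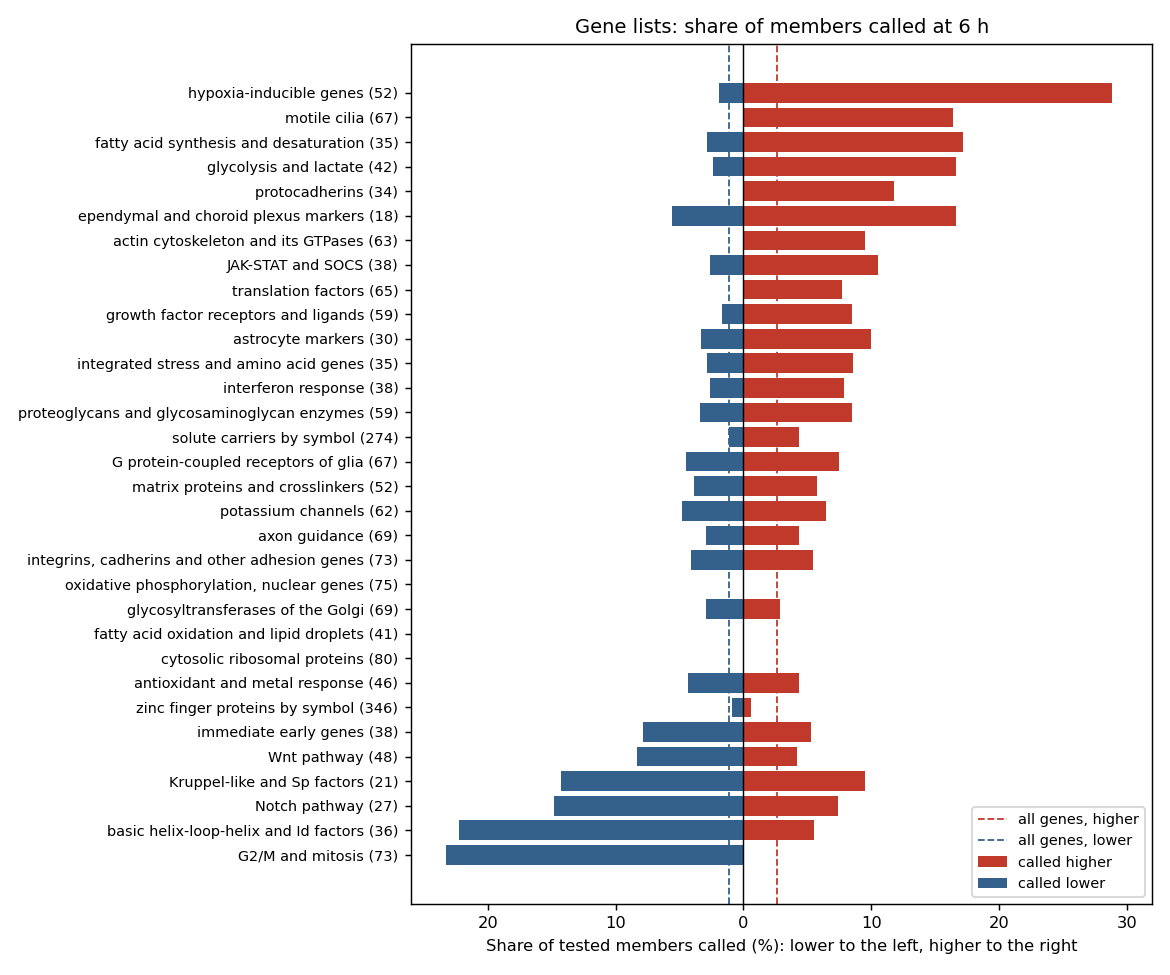
Share of tested members called higher (red, to the right) and lower (blue, to the left) in percent, for gene lists with at least 4 called members and for 3 lists with none, with the number of tested members in brackets and dashed lines at the shares over all genes (2.61% higher, 1.16% lower). The list of thyroid hormone-responsive genes, with 11 of 32 tested members higher, is not shown. Hypoxia-inducible genes, motile cilia, fatty acid synthesis and glycolysis extend to the right, and mitosis and basic helix-loop-helix factors to the left. The hypoxia list was put together after the values had been seen, so its share is no support, and it repeats the raised genes of the glycolysis bar.

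Lowered genes were fewer and changed less, and they included transcription factors of neural progenitors. Basic helix-loop-helix factors bind DNA as pairs and steer cells between proliferation and differentiation, and many are targets or opponents of Notch signalling. Of 36 tested basic helix-loop-helix and Id genes, 8 were lower (22.2%) and 2 higher. Mycn, which drives progenitor growth (ENSMUSG00000037169, chromosome 12, 12936093 to 12941914), was at 40.6, 37.8, 37.4 and 35.0 CPM with T3 and at 53.8, 56.7, 57.4 and 48.5 CPM in controls. All T3 libraries were below all controls, and the log2 change was -0.52 ± 0.07 (SE, adjusted p = 5.8e-05, edgeR).

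Hes5, Hes1 and Hes6 of the Hairy family were lower by 1.00 ± 0.21, 0.43 ± 0.09 and 0.50 ± 0.10 log2, and Hes1 read 24.5, 25.3, 25.0 and 23.5 CPM with T3, against 32.8, 33.0, 32.6 and 34.1 CPM in controls. The oligodendrocyte factor gene Olig1, the tendon factor gene Scx and Mycl were also among the 8. Summed progenitor and radial glia markers (19 genes, none at 0) were 16725 to 17206 CPM with T3, against 17324 to 18719 CPM in controls, and the part of such cells in these results was not tested. Calls of Olig1 and Mycl were lost in 6 and 8 of the 8 fits without 1 library. Hey1, another Notch target, went the other way, at 158, 157, 153 and 146 CPM with T3 and 116, 114, 107 and 125 CPM in controls (0.41 ± 0.06 log2, SE, adjusted p = 3.1e-05, edgeR).

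Within the Notch pathway as a whole, 4 of 27 tested genes were lower and 2 higher. Lfng, which adds sugars to Notch and tunes its response to ligands, stood at 85.7, 92.4, 85.6 and 80.1 CPM with T3, against 106, 114, 120 and 116 CPM in controls (-0.41 ± 0.07 log2, SE), and the ligand gene Dll3 was lower by 0.34 ± 0.08 log2. Nrarp, a Notch target that dampens the pathway, was raised, at 103, 101, 111 and 103 CPM with T3 and 68.7, 65.4, 69.6 and 69.2 CPM in controls (0.61 ± 0.06 log2, SE). The call of Dll3 was lost without T3 replicate 4 and without control replicate 3.

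Wnt genes were split in a similar way, with 4 of 48 lower and 2 higher. The receptor gene Fzd9 (ENSMUSG00000049551, chromosome 5, 135248938 to 135251230) stood at 16.5, 18.8, 17.2 and 14.7 CPM with T3 and 26.5, 29.0, 31.4 and 29.2 CPM in controls, lower by 0.79 ± 0.14 log2 (SE, adjusted p = 0.00085, edgeR). Fzd5 (-0.38 ± 0.09), Wnt2 (-1.21 ± 0.28) and Wnt7b (-0.40 ± 0.09) were lower too. The ligand gene Wnt7a, a close relative of Wnt7b, was higher, at 118, 118, 122 and 115 CPM with T3 and 88.1, 79.6, 82.3 and 100 CPM in controls, as was the secreted inhibitor gene Sfrp4. The call of Fzd5 was lost in 3 fits without 1 library, that of Wnt2 without control replicate 4 and that of Sfrp4 without control replicate 3.

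The Krüppel-like factors showed the same mixture, since Klf9 and Klf10 were higher while Klf11, Klf15 and Klf16 were lower among 21 tested genes. Klf11, a repressor related to Klf10 (ENSMUSG00000020653, chromosome 12, 24651274 to 24662789), had the smallest p of all eligible lowered genes, with 38.8, 35.7, 33.6 and 37.9 CPM with T3, against 49.2, 56.3, 58.0 and 50.6 CPM in controls (-0.55 ± 0.08 log2, adjusted p = 5.6e-05, edgeR). Klf15, known as a target of glucocorticoids, was lower by 0.33 ± 0.06 log2, and Klf10 was higher by 0.51 ± 0.06 log2. The call of Klf16 was lost in 4 of the 8 fits without 1 library.

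Among 38 tested immediate early genes 2 were higher (5.26%) and 3 lower (7.89%), against 2.61% and 1.16% over all genes, with a median log2 change of -0.02 over the list. Btg2, an antiproliferative immediate early gene (ENSMUSG00000020423, chromosome 1, 134075170 to 134079120), was at 59.1, 60.3, 64.9 and 57.7 CPM with T3 and at 86.6, 92.8, 87.2 and 81.5 CPM in controls (-0.53 ± 0.08 log2, adjusted p = 7.6e-05, edgeR). Its relative Btg1 and the mRNA decay factor gene Zfp36l1 were lower by 0.24 and 0.35 log2, the call of Btg1 being lost without T3 replicate 2 or 4. Tyro3, a receptor tyrosine kinase of the family that recognises dying cells, stood at 87.2, 94.7, 89.5 and 84.7 CPM with T3, against 127, 137, 142 and 111 CPM in controls (-0.54 ± 0.08 log2, SE). The remaining genes with the smallest p among the lowered were Rap1gap, which switches off the GTPase Rap1, the actin-binding gene Coro2b, Cand2, Lrrc4, an adhesion protein of synapses, 6430548M08Rik, Zbtb42 and the phosphatase gene Ptp4a3, at -0.36 to -0.62 log2.

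The most abundant lowered genes lost more RNA for less fold. Mfge8, a secreted bridge between dying cells and phagocytes (ENSMUSG00000030605, chromosome 7, 79133768 to 79149060), read 824, 915, 858 and 772 CPM with T3 and 1045, 1062, 1044 and 1153 CPM in controls. Mest, an imprinted gene (ENSMUSG00000051855, chromosome 6, 30723547 to 30748465), was at 395, 389, 383 and 385 CPM with T3 and at 527, 523, 530 and 554 CPM in controls. Neither gene's groups overlapped, and the log2 changes were -0.35 ± 0.09 for Mfge8 and -0.46 ± 0.08 for Mest (SE, adjusted p = 0.021 and 0.0011, edgeR). Ctdsp2 and Cdc42se2 were lower by 0.19 and 0.24 log2. The call of Mfge8 was lost without T3 replicate 1, T3 replicate 4 or control replicate 4, and that of Ctdsp2 in 5 of the 8 fits without 1 library.

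**Figure D4:**
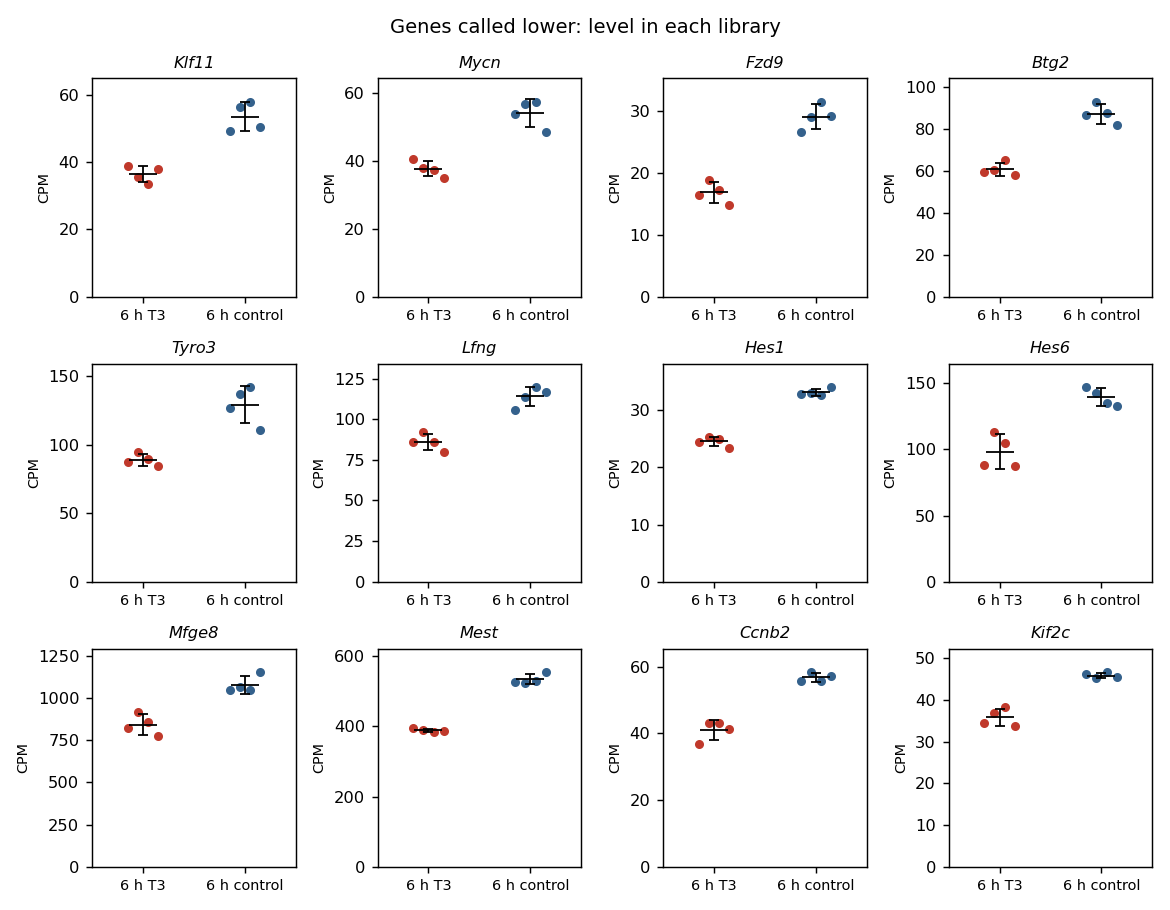
Level in CPM (y axis from 0) of 12 genes called lower, in the 4 libraries with T3 (red, left) and the 4 controls (blue, right), with bars for the mean and SD. Every T3 library lies below every control in all 12 panels, and the gaps are small beside the levels themselves. Lack of overlap was a condition for naming part of these genes, so it adds no support.

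Mitosis genes leaned downward by small amounts, and some of them passed the test. Of 73 tested genes of G2 phase and mitosis, 70 had a negative log2 change, the median was -0.24, and 17 were called lower (23.3%) and none higher. Many genes of this phase carry CCAAT boxes, bound by NF-Y, and a CHR element, bound by the DREAM and MMB complexes, in their promoters. The promoters below are examples from 3 of the 5 called members whose 250 bases upstream of the RefSeq start (GRCm38.p6) hold both motifs. They are Ccnb2 (cyclin B2, chr9:70421555-70421804, minus strand), Ckap2 (a spindle protein, chr8:22185820-22186069, minus strand) and Ccnf (cyclin F, chr17:24251410-24251659, minus strand). Each is written 5′ to 3′ on the strand of the gene, and capitals mark CCAAT or its reverse complement ATTGG, and TTTGAA or its reverse complement TTCAAA.
Ccnb2: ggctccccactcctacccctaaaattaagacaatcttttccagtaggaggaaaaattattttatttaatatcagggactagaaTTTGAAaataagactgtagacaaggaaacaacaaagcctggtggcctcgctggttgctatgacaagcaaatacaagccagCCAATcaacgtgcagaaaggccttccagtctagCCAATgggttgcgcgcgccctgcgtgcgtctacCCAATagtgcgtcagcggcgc
Ckap2: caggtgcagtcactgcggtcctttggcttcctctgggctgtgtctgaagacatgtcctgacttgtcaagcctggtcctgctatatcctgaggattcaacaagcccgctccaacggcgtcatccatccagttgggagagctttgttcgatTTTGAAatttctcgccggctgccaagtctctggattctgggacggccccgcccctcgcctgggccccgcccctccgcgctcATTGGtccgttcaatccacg
Ccnf: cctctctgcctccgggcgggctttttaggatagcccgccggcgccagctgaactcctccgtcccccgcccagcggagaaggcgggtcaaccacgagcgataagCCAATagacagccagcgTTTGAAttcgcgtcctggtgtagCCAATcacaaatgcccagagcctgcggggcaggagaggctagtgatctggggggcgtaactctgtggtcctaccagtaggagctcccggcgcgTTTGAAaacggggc

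CCAAT, searched on both strands, was present in 12 of the 14 promoters of called mitosis genes that the RefSeq table holds (85.7%) and in 43 of 61 promoters of all tested mitosis genes (70.5%), against 36.1% of the 11448 tested genes with a promoter in the table. TTTGAA on both strands was in 6 of 14 (42.9%) and 23 of 61 (37.7%), against 10.1%, and a match of one can share at most 1 base with a match of the other. Lowered genes outside the mitosis list had CCAAT in 40.2% and TTTGAA in 9.09% of 132 promoters. AGGTCA, the unit that thyroid hormone receptors bind in pairs, was in 10.1% of 317 promoters of raised genes and 6.16% of 146 of lowered genes, against 10.2% of all tested. These matches describe letters in 250 bases and do not show binding.

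Ccnb2 itself (ENSMUSG00000032218) measured 36.7, 43.0, 43.1 and 41.4 CPM with T3, against 55.7, 58.4, 55.9 and 57.3 CPM in controls, a change of -0.47 ± 0.11 log2 (SE, adjusted p = 0.017, edgeR). Kif2c, a kinesin that takes microtubules apart at kinetochores, was at 34.4, 36.9, 38.2 and 33.7 CPM with T3 and at 46.1, 45.2, 46.7 and 45.4 CPM in controls (-0.36 ± 0.08 log2, SE, adjusted p = 0.012, edgeR). All T3 values of both genes were below all controls. The phosphatase gene Cdc25b, the kinase genes Aurka, Aurkb and Plk1, the motor gene Kif4, Ckap2, Ccnf and the transcription factor gene Foxm1 were lower by 0.28 to 0.43 log2. In fits without 1 of the 8 libraries the calls were lost in 6 for Aurka and Ccnf, 5 for Aurkb and Plk1, 4 for Foxm1 and 3 for Ckap2. That of Ccnb2 was lost without T3 replicate 1 or control replicate 2, that of Kif2c without T3 replicate 4 and that of Kif4 without control replicate 3.

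The S phase list leaned the same way with a single call: 48 of 57 tested genes were negative, with a median of -0.13 log2, and only Mcm6, of the replicative helicase, passed (-0.20 ± 0.06), a call lost in all 8 fits with 1 library left out. Summed over the list, mitosis genes ran from 3885 to 3941 CPM with T3, against 4410 to 4803 CPM in controls. The number called was 3 without T3 replicate 4, 4 without T3 replicate 3, 5 without control replicate 3, 7 without T3 replicate 1 or control replicate 2, and 10 without control replicate 1, and it was 38 without the 2 libraries that stood apart in other arms, 32 with only the 8 libraries in the fit and 33 with length and GC trends removed. The list's median lay between -0.22 and -0.29 log2 in all of these.

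Several large groups showed no called member. None of 80 tested cytosolic ribosomal protein genes, 76 mitochondrial ribosomal protein genes, 75 nuclear genes of oxidative phosphorylation, 38 proteasome genes, 55 lysosome and autophagy genes and 22 aminoacyl-tRNA synthetase genes passed the test. Over all genes 3.77% passed, a share at which the smaller of these groups would hold few calls. The medians of these groups lay between -0.12 and 0.04 log2. Signs were negative in 69 of the 80 cytosolic ribosomal protein genes and 66 of the 75 oxidative phosphorylation genes, both with a median of -0.12 log2. That median is close to the one of the S phase list, but the spread between libraries was wider. The SD of the list's mean log2 level within a group was 0.17 for ribosomal and 0.16 for oxidative phosphorylation genes, against 0.03 for the S phase list. The ribosomal sums of the groups overlapped, at 5758 to 7604 CPM with T3 and 6111 to 8353 CPM in controls. Of 65 tested translation factors 5 were higher and none was lower, at small changes such as 0.39 ± 0.08 log2 for Eif4g3 and 0.23 ± 0.06 log2 for Eif5b, whose call was lost in 3 of the 8 fits without 1 library. The count of raised translation factors was 2 without T3 replicate 1, T3 replicate 4 or control replicate 2. Of 346 zinc finger genes recognised by their symbols 2 were higher (0.578%) and 3 lower (0.867%). Among the astrocyte markers 3 of 30 were higher, Kcnj10, Atp1b2 and Glul, and 1 was lower, Fgfr3. Gfap, the filament gene used to stain astrocytes, was at 5083, 5627, 5322 and 5305 CPM with T3 and 4646, 4064, 4241 and 4478 CPM in controls, but did not pass (0.29 ± 0.10 log2, adjusted p = 0.11, edgeR), and Aldh1l1 gave -0.15 ± 0.07 log2.

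The series repeats T3 at 24 h and, at 6 h, in the presence of CHX, read here as cycloheximide, which blocks protein synthesis. These arms share no library with the 8 described here. By the file names, the libraries with CHX and T3 were on lane 6. Those with CHX alone were on lane 5 for replicates 1 to 3 and on lane 6 for replicate 4. In that arm T3 and lane therefore largely coincided. At 24 h, T3 had only replicates 1 to 3, with replicate 3 on lane 7 and the other libraries of that time on lane 6. The part of the lanes was not tested. Of the 420 raised genes, 214 (51.0%) were also called higher at 24 h, where 4.41% of all genes were, and 124 (29.5%) were called higher with CHX, where 1.16% of all genes were. Of the 374 genes raised less than 2-fold, 50.0% were called again at 24 h and 29.1% with CHX, and of the 46 raised 2-fold or more, 58.7% at 24 h and 32.6% with CHX.

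Part of the lowered genes were called again at 24 h, while few genes of any kind were called lower with CHX. At 24 h 63 of the 186 (33.9%) were called lower again, where 2.68% of all genes were. With CHX only 21 of 16087 genes were called lower (0.131%), a share at which 186 genes would hold hardly any call. None of the 186 was called lower there, and 85 of the 186 had a negative sign. By unadjusted p under 0.05 in edgeR, 7 of the 186 were lower and 25 higher with CHX, and in DESeq2 none of its 338 lowered genes was called lower, with 16 at an unadjusted p under 0.05. The median log2 change of the 186 genes was 0.01 with CHX. Kif4 was the single one called in the opposite direction.

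Whether CHX altered the effect of T3 was tested for each gene by the difference of the log2 changes, which passed in 196 genes, 1.22% of all. It passed in 49 of the 186 lowered genes, all with a value that was less negative or positive with CHX, and in 69 of the 420 raised genes, of which 67 had a smaller value with CHX. The difference uses the same 6 h libraries that made the calls, which favours differences of this direction. Between 24 h and 6 h the difference passed in 135 genes, 0.839% of all, and in 27 raised and 4 lowered genes of the 6 h response.

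Single genes show how the arms compare, chosen after their values were seen. Klf11 changed by 0.13 log2 with CHX and -0.55 without, Mycn by 0.09 and -0.52, and Btg2 by 0.02 and -0.53, and each difference passed the test (adjusted p of 0.0029 to 0.017, edgeR). For the cilia genes the sign was negative with CHX, at -0.39 log2 for Rsph4a and -0.12 for Ccdc40. Nrarp was the opposite case, with 2.02 log2 with CHX and 0.61 without. Between the times, Slc25a33 and Acsl6 were raised more at 24 h (1.41 and 0.88 log2) than at 6 h (0.62 and 0.29), while Slc43a2 was at -0.03, Met at -0.14, Vegfa at 0.17 and Klf10 at 0.09 log2 at 24 h.

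**Figure D5:**
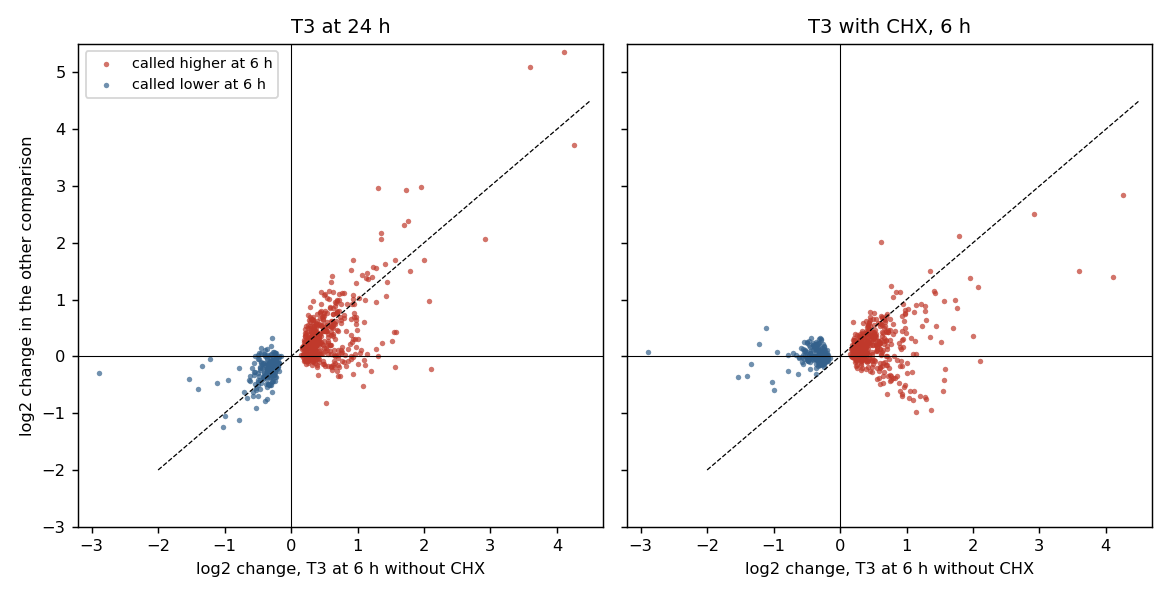
Log2 change of the 606 called genes in the other comparisons (y axis), T3 at 24 h on the left and T3 with CHX at 6 h on the right, against the log2 change at 6 h without CHX (x axis), with genes raised at 6 h in red, lowered ones in blue and a dashed line of equality. The lowered genes lie mostly below 0 at 24 h, with a median of -0.21, and around 0 with CHX, with a median of 0.01.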

How the data were processed

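RNA of astrocyte cultures was sequenced in 23 libraries from 200 ng of total RNA with a kit that keeps no strand, as single reads of 50 nt, per the labels' protocols. Per the submitters' processing notes, the tools included TopHat, Bowtie and HTSeq besides edgeR, FastQC and bcl2fastq, all without versions, and the build was GRCm38. The authors deposited whole-number counts per gene for each library, and 36429 of 38293 gene IDs were found in GENCODE M21 on GRCm38. The 5 lines that name no gene were left out. Reads not placed uniquely, 1 of these lines, made up 36.2% to 42.1% of all counts of a library, those lines included, in the 8 libraries.

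Genes were filtered with filterByExpr (minimum count 10), scaled with TMM and fitted with edgeR 4.0.16 (R 4.3.3, limma 3.58.1) over all 23 libraries with a mean for each of the 6 groups. All libraries of the series share one estimate of the spread, and the biological coefficient of variation was 8.57% (7.80% over the 8 libraries alone). Log2 changes are T3 minus control, standard errors came from the F statistic, and p-values were Benjamini-Hochberg adjusted over 16087 genes. CPM values used TMM-scaled library sizes. The procedure was tested on simulated data. DESeq2 1.42.0, other scalings and filters, fewer libraries, and a length and GC trend (mgcv 1.9.3, 15894 genes) were alternatives. Promoters were RefSeq's, on GRCm38.p6.

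The genes, the 82 gene lists and the tests were chosen with earlier results of these data known, the hypoxia list and the genes compared with other arms after these values were seen. Genes eligible for naming were protein-coding, called, without overlap and at 1 CPM or more. From these came the 8 with the largest rise, and 12 with a rise between 0.3 and 1 log2 and 15 lowered ones with the smallest p. The 6 most abundant and the 5 with the largest CPM difference in each direction were also taken. From each list up to 4 tested members with the smallest p were added without these conditions, called or not. Hr, Klf9 and Dio3 were added, and further list members and other genes were named after their values were seen. Lists not described in the results had at most 3 members called in a direction. Results on a few genes are not reported here, though counts include them.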

Additional observations from a re-analysis of the deposited data

Results flagged for a closer look

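In groups of 4 libraries, a value was marked where its gap to the nearest library, over the whole range, passed Dixon's 95% critical value for 4 values. That held in 16 of 318 groups over 159 genes, and chance gives about 1 in 20. Among T3 libraries these were replicate 1 for Ppargc1a (74.4 CPM), Fgfr3 (201 CPM) and Pcdha11 (54.4 CPM), replicate 2 for Coro2b (117 CPM) and Kcnk5 (7.10 CPM), replicate 3 for Glul (1551 CPM), and replicate 4 for Fads3 (56.6 CPM), Vegfc (9.81 CPM), Cldn19 (24.1 CPM) and Ak7 (7.77 CPM). Among controls they were replicate 2 for Ky (2.03 CPM) and Cldn2 (8.47 CPM), replicate 3 for Eif4g3 (147 CPM), and replicate 4 for Mfge8 (1153 CPM), Vegfc (9.77 CPM) and Gm22009 (30.9 CPM).

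For 19 genes compared with the other arms, the difference of the T3 effect was tested itself, with edgeR and adjustment over all genes. With CHX minus without, it passed upward for Nrarp (1.40 log2), Ccnb2 (0.74), Klf11 (0.68), Kif4 (0.63), Mycn (0.61), Coro2b (0.58) and Btg2 (0.55). It passed downward for Rsph4a (-1.22), Ccdc40 (-0.72), Hk2 (-0.70), Vegfa (-0.54), Slc43a2 (-0.53), Rhob (-0.41), Atp1b2 (-0.37) and Slc38a3 (-0.29). At 24 h minus 6 h, it passed for Slc25a33 (0.79) and Acsl6 (0.58), and downward for Ccdc40 (-0.77), Slc43a2 (-0.74), Met (-0.63), Vegfa (-0.59) and Klf10 (-0.42). These genes were chosen after their values were seen.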

How the results depend on the processing

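Of the 606 called genes none changed sign under any alternative. With 6 h CHX replicate 4 and 24 h T3 replicate 1 left out, 1200 genes were called (760 higher, 440 lower, 1128 under 2-fold) and 436 also at 24 h. With length and GC trends removed 999 were called (493 lower, 939 under 2-fold), and DESeq2 called 338 lower and 838 under 2-fold. Leaving out 1 library gave 349 to 676 calls, 273 to 466 higher, 76 to 210 lower, 316 to 611 under 2-fold, 211 to 277 also called at 24 h and 104 to 124 also with CHX. Without control replicate 2 there were 387 calls. Same-numbered libraries did not deviate together (r of -0.06, -0.05, 0.00 and -0.03), and with a replicate block over the 8 libraries 424 genes were higher and 177 lower, 601 in all, of which 429 were among the 606. Another 72 values of these counts stayed within 1.5 times. Of 152 called genes in the text, 60 lost the call in at least 1 fit without a library and 27 under at least 1 other alternative. The cause was not tested. Depth limits calls under 10 CPM most.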
